A study of Mus musculus with 37 samples.

Results

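The 5 libraries compared here are control mouse embryos at the late 2-cell stage (2 libraries) and at the early 2-cell stage (3 libraries), of 37 libraries in the whole series. They were taken by the stage and genotype in the sample titles, and the comparison covered every gene that passed a filter on low values. That left 12719 of the 55401 genes in the deposited table. The series examined how loss of BAP1, a deubiquitinase that removes the Polycomb mark from histone H2A, alters the transcriptome of mouse oocytes and embryos. Controls came from Bap1 flox/flox eggs fertilised by B6 sperm, so the floxed allele was present in the controls too. Maternal knockout embryos, used here only at the end, came from Gdf9-iCre, Bap1 flox/flox eggs and B6 sperm, where the Gdf9 promoter drives the recombinase in oocytes and the paternal Bap1 allele stays intact. Embryos of both kinds were grown in KSOM medium, and RNA was measured by stranded total RNA-seq. The labels give neither the number of embryos per library nor whether the libraries came from separate mothers, so the p-values below measure only the spread between these libraries. No batch or date is given, and a difference in handling between the stages cannot be told apart from the stage.

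A mouse egg stops transcribing before it is ovulated and carries a store of maternal messenger RNA into the embryo. After fertilisation a minor wave of transcription starts in the 1-cell and early 2-cell embryo, with genes such as Dux, the Zscan4 cluster and Zfp352. The major wave follows during the 2-cell stage, when genes for transcription, ribosome production and protein synthesis are switched on, while deadenylation, uridylation and decapping remove the maternal store.

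The labelled stages were checked on their defining genes. Zscan4d, a nuclear protein of the early 2-cell embryo, measured 60.1, 53.3 and 37.2 FPKM in the early and 7.91 and 8.13 FPKM in the late libraries, against a mean of 1.11 FPKM in control MII eggs. Egg transcripts were still present in all 5 libraries, with Nlrp5, a protein of the egg cortex, at 97.6, 120.2 and 88.5 FPKM early and 31.2 and 30.5 FPKM late. Of 16 cumulus and granulosa markers 2 could be tested, and their summed level ranged from 6.16 to 7.71 FPKM early and from 4.01 to 4.28 FPKM late. One of them, the aromatase gene Cyp19a1, was lower in the late libraries (late minus early difference -1.65 on the log2(FPKM + 1) scale), and the part of follicle cells in any result was not tested. Kitl, the other tested marker, was not called (0.11). Of the 16 markers, 4 were listed at 0 in all 5 libraries (Ptx3, Lhcgr, Inha and Hsd3b1), and the untested markers reached at most 1.60 FPKM. Sperm markers summed to between 99.5 and 113 FPKM early and between 69.6 and 72.0 FPKM late. Of 3 tested, Ldhc was higher (1.38) and Prm2 (-1.55) and Odf2 (-0.61) were lower. Ldhc was below the filter without late replicate 1 or 2. Most of the sum was Odf2, at 96.5, 106 and 109.5 FPKM early. Of the 10 sperm markers, 5 were listed at 0 in all 5 libraries, Prm1 and Akap4 among them, and the untested markers reached at most 0.592 FPKM. Blood and immune markers summed to at most 2.33 FPKM, and 4 of the 10 were listed at 0 in all 5 libraries, Hbb-bs and Ptprc among them.

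The FPKM summed to between 357363 and 387957 in the early and between 404518 and 430784 in the late libraries, and the depth behind them is unknown. Mitochondrial genes made up 13.8% to 17.8% of that sum early and 22.8% to 23.7% late, and the gene model Gm23935, annotated as a microRNA, made up 12.8% to 19.6% early and 20.2% to 23.1% late. The share of nuclear protein-coding genes was 56.5% to 60.0% early and 43.7% to 47.6% late. Across genes, Pearson's r of log2(FPKM + 1) was 0.965 to 0.974 between early libraries, 0.975 between the late libraries and 0.754 to 0.775 between the stages. Genes are not independent replicates, and these values only describe the libraries.

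Between the early and the late 2-cell stage 4164 genes were higher in late embryos (32.7% of those tested) and 3323 were lower (26.1%). Calls are from limma on log2(FPKM + 1) at a Benjamini-Hochberg adjusted p under 0.05, and every difference below is late minus early on that scale, which makes changes of low genes look smaller. Differences of at least 2-fold were called for 3039 genes upward (23.9%) and 1842 genes downward (14.5%). The 3 early and 2 late libraries did not overlap for 9373 genes (73.7%). FPKM is a share of what was sequenced in a whole embryo, so fewer cells with a transcript, less RNA per cell and more RNA from other genes cannot be told apart. Leaving out either late library reduced the higher calls and the 2-fold higher calls. Only 1 late library was then left. A gene under 1 FPKM in every early library no longer passed the filter and could not be called. This bears also on the list counts below that are given without a late library. Centring each library on its median moved the median difference of all genes from 0.05 to -0.18 and turned the split to 3462 higher and 4445 lower, so that 43.8% of calls were upward instead of 55.6%. No gene called in one direction was called in the other under any setting. Genes are said to have risen or fallen only where they were called. For each of the 183 called genes among those examined by name the late libraries lay outside the range of the early ones. For the genes named as rising or falling most, among all genes or in a list, this was a condition of their choice.

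**Figure D1:**
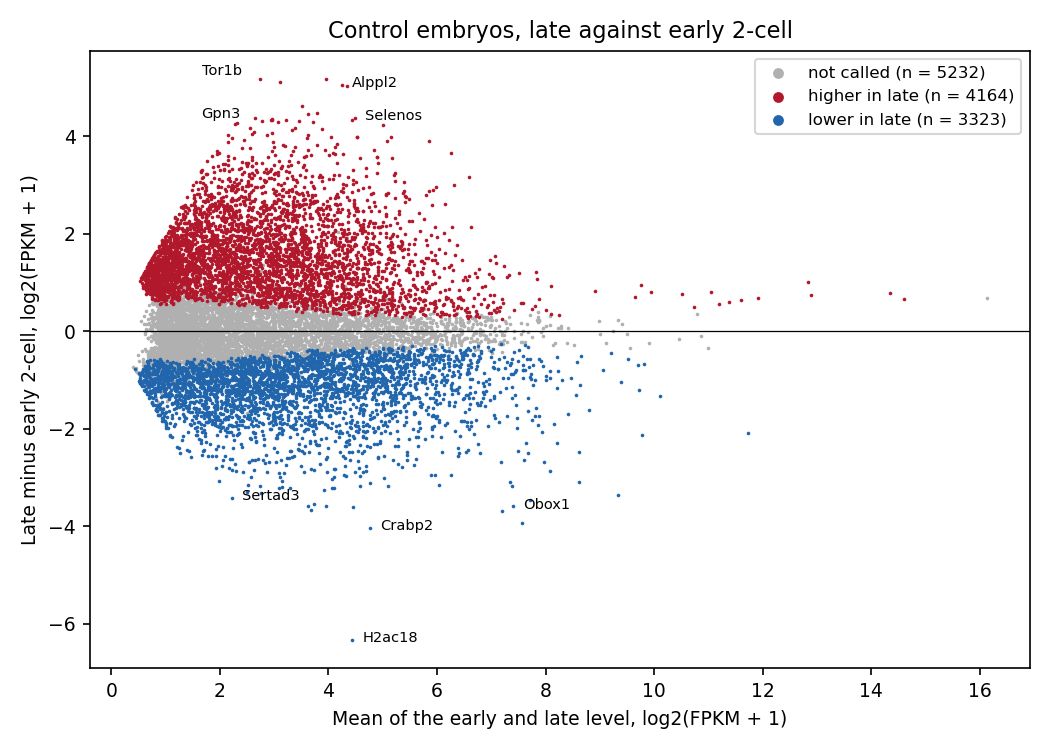
Late minus early 2-cell difference of each of 12719 genes (vertical axis, log2(FPKM + 1)) against the mean of its early and late level (horizontal axis, same scale) in control embryos. Red points are the 4164 genes higher and blue points the 3323 genes lower in late embryos at an adjusted p under 0.05. The named points are some of the genes described below as rising or falling most.

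The 8 genes with the steepest rise measured at most 5.02 FPKM in any early library and at least 27.4 FPKM in both late ones. Tor1b, a torsin ATPase of the endoplasmic reticulum and nuclear envelope, lies at chromosome 2, 30952959 to 30959015 (GENCODE M21, mm10). It measured 0.176, 0.0465 and 0.114 FPKM early and 37.7 and 40.4 FPKM late, a difference of 5.17 ± 0.20 (SE) with an adjusted p of 6.53e-06. Exoc3l2, a relative of an exocyst subunit, measured 0.797, 0.234 and 0.401 FPKM early and 53.9 and 45.7 FPKM late (5.12 ± 0.23 (SE)). Both genes were thus under 1 FPKM in every early library. Alppl2, a cell-surface alkaline phosphatase, went from 2.31, 2.86 and 1.72 to 109.8 and 105 FPKM (5.06 ± 0.18 (SE)). Folr1, the folate receptor, went from 1.58, 0.844 and 1.54 to 60.9 and 50.6 FPKM (4.62 ± 0.21 (SE)). These 4 genes were at similar levels in the pair of late libraries.

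Rpl10l, a gene for a copy of ribosomal protein L10, measured 3.51, 0.884 and 1.61 FPKM early and 56.0 and 68.2 FPKM late (4.48 ± 0.34 (SE)). Zfp775, which encodes a zinc finger protein, measured 2.78, 0.916 and 1.29 and 64.1 and 47.2 FPKM (4.46 ± 0.30 (SE)). Selenos, a selenoprotein of endoplasmic reticulum protein degradation, measured 5.02, 3.16 and 3.68 and 109 and 92.8 FPKM (4.38 ± 0.19 (SE)). Early replicate 1 was the highest of the early libraries for these 3 genes and stayed far below both late libraries. Gpn3, a GTPase that helps to assemble RNA polymerase II, measured 0.303, 0.283 and 0.570 and 27.9 and 27.4 FPKM (4.37 ± 0.21 (SE)). Adjusted p ranged from 6.53e-06 to 3.78e-05 over the 8 genes. A call and late libraries apart from the early ones were conditions of their choice. Tor1b, Exoc3l2, Folr1 and Selenos had been near 0 before, with means of at most 0.244 FPKM in control fully grown oocytes, MII eggs and late 1-cell embryos. Of the 8 genes, Zfp775 and Gpn3 share over 10% of their exonic words of 50 bases with other annotated genes.

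**Figure D2:**
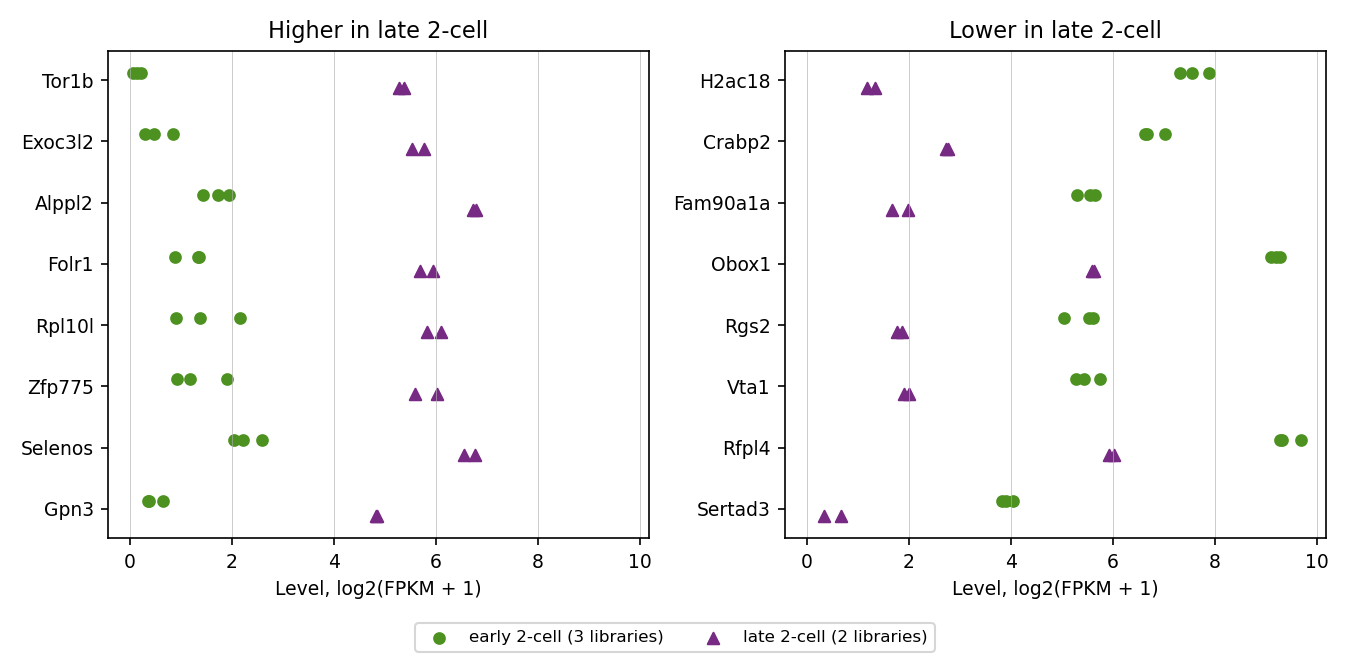
Level of each gene in each control library, as log2(FPKM + 1) on the horizontal axis, for the 8 genes that rose most (left) and the 8 that fell most (right). Green circles are the 3 early and purple triangles the 2 late libraries, which do not overlap for any of the 16 genes because the choice required it.

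The 8 genes with the steepest fall had all been present in the oocyte and egg, at means from 7.66 to 430.1 FPKM in fully grown oocytes. Crabp2, a carrier of retinoic acid, lies at chromosome 3, 87948666 to 87953376 and measured 97.8, 101 and 129.6 FPKM early and 5.82 and 5.63 FPKM late (-4.03 ± 0.15 (SE), adjusted p 6.53e-06). Fam90a1a measured 45.9, 49.4 and 38.2 FPKM early and 2.20 and 2.95 FPKM late (-3.67 ± 0.17 (SE)). Rgs2, which switches off G protein signals, measured 48.1, 45.4 and 32.2 and 2.41 and 2.67 FPKM (-3.58 ± 0.19 (SE)). All 3 genes were under 6 FPKM in both late libraries. Vta1, a cofactor of membrane scission by the ESCRT machinery, went from 42.3, 52.9 and 37.8 to 3.02 and 2.75 FPKM (-3.53 ± 0.17 (SE)). Rfpl4, a ret finger-like protein of oocytes, went from 635, 623 and 828 to 63.9 and 60.0 FPKM (-3.45 ± 0.14 (SE)). Sertad3, a regulator of transcription, went from 15.4, 13.9 and 13.2 to 0.266 and 0.589 FPKM (-3.42 ± 0.20 (SE)). Rfpl4 was still abundant in late embryos, whereas Sertad3 was under 1 FPKM in both late libraries.

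The widest difference among the 8 belonged to H2ac18, a histone H2A gene at chromosome 3, 96245497 to 96246082, and its value is uncertain. It measured 186, 237 and 159 FPKM early and 1.53 and 1.28 FPKM late (-6.33 ± 0.17 (SE)), but 100% of its exonic words of 50 bases occur in other annotated genes. The overlapping model Gm20634 on the same strand, named after its values were seen, moved the other way, from 5.20, 5.28 and 5.99 to 22.8 and 20.3 FPKM (1.80 ± 0.16 (SE)). How reads were divided between the overlapping models was not tested. Vta1 shares 10.9% of its words, and Obox1, the remaining gene of the 8, is described with its family. Adjusted p ranged from 5.46e-06 to 1.68e-05 over these 8 genes.

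Genes of the minor wave moved both ways. Of 37 early 2-cell genes tested, 16 were lower and 11 higher in late embryos (43.2% and 29.7%, against 26.1% and 32.7% of all genes), with a median difference of -0.50 against 0.05 for all genes. Duxf3, the Dux homeobox gene that opens the 2-cell programme, measured 5.52, 3.31 and 5.75 FPKM early and 0.452 and 0.463 FPKM late (-1.98 ± 0.27 (SE), adjusted p 0.000502). Zscan4c, a telomere and chromatin factor, measured 60.7, 43.1 and 46.4 and 4.49 and 4.45 FPKM (-3.21 ± 0.17 (SE), adjusted p 1.28e-05), and Zscan4d fell by 2.48 from the levels given above. Copies of the cluster share sequence, 85.5% of the exonic words of Zscan4c and 49.6% of those of Zscan4d, so the division of reads among them is uncertain. Shared words made up 47.0% for Duxf3. Zfp352, a zinc finger gene of the same wave, fell too, from 64.0, 54.9 and 56.4 FPKM early to 31.2 and 34.1 FPKM late (-0.82 ± 0.12 (SE)). Of Duxf3, Zscan4c, Zscan4d and Zfp352, the last kept the highest FPKM in late embryos.

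Other early 2-cell genes were not called or rose. Tcstv3 measured 23.8, 31.3 and 27.6 FPKM early and 32.0 and 32.6 FPKM late, a difference of 0.23 ± 0.14 (SE) that was not called (adjusted p 0.199). Usp17lc, a ubiquitin-specific protease, measured 55.1, 52.9 and 33.7 and 31.7 and 33.1 FPKM and was not called either (-0.50 ± 0.21 (SE), adjusted p 0.0711), although neither gene's groups overlapped. Tdpoz4, a gene of the TRAF and BTB domain family, rose from 6.37, 2.67 and 3.55 to 20.96 and 29.1 FPKM (2.37 ± 0.30 (SE)). Pramel7, a PRAME-like gene, rose most in the list, from 5.41, 6.06 and 6.37 to 92.1 and 70.4 FPKM (3.56 ± 0.16 (SE), adjusted p 7.9e-06). A transient pattern, under 1 FPKM at all earlier stages, at least 5 FPKM early and at least 2-fold lower late, was seen in 13 genes, predicted and clone-named models left out. Among them were 4 Zscan4 genes with 2 Zscan4 pseudogenes, the ubiquitin protease genes Usp17la and Usp17le, and Eif4a3l1, a relative of an RNA helicase, which went from 25.4, 31.2 and 20.7 to 1.99 and 1.83 FPKM (-3.19 ± 0.20 (SE)).

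The Obox homeobox genes, which encode transcription factors of oocytes and 2-cell embryos, parted by their level before the 2-cell stage. All 7 tested members were called, 3 higher and 4 lower, where 58.9% of all genes were called in either direction. Obox1 measured 548, 623 and 590.2 FPKM early and 48.5 and 47.0 FPKM late (-3.59 ± 0.10 (SE), adjusted p 5.46e-06), and 57.4% of its exonic words occur elsewhere. Obox5 measured 617, 606 and 695 and 103 and 93.8 FPKM (-2.68 ± 0.11 (SE)). Obox2 (-2.48) and Obox7 (-3.17) fell as well. These 4 genes averaged at least 45.4 FPKM each in control oocytes, eggs and late 1-cell embryos. Obox6 measured 8.31, 6.23 and 6.19 FPKM early and 109 and 96.2 FPKM late (3.72 ± 0.16 (SE), adjusted p 7.53e-06). Obox8 measured 2.14, 1.17 and 2.703 and 53.1 and 60.1 FPKM (4.29 ± 0.24 (SE)), and Obox3 measured 17.4, 12.9 and 15.1 and 40.2 and 46.6 FPKM (1.47 ± 0.16 (SE)). None of these 3 averaged over 0.315 FPKM at any stage before the 2-cell embryo. At the late stage Obox6, at a mean of 103 FPKM, stood beside Obox5 at 98.5 FPKM.

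**Figure D3:**
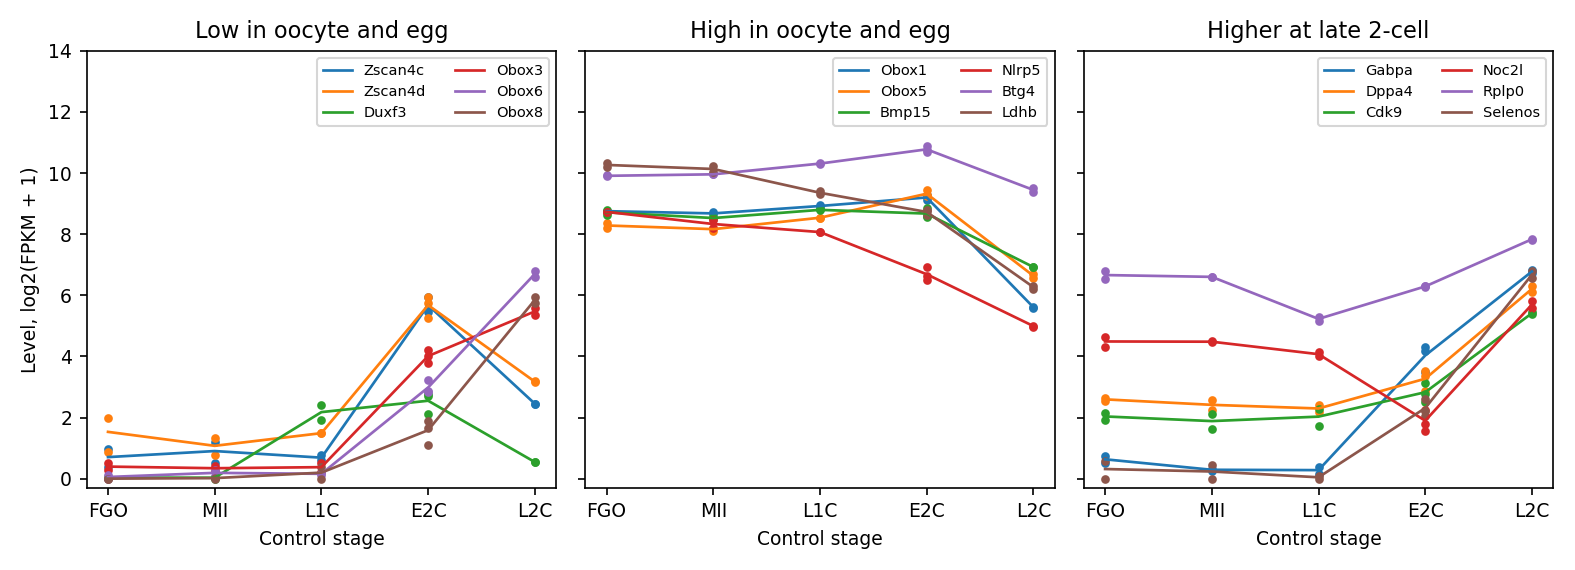
Levels of selected genes, as log2(FPKM + 1), in the control libraries from fully grown oocytes (FGO) and MII eggs to late 1-cell (L1C), early 2-cell (E2C) and late 2-cell (L2C) embryos, with 1 point per library and a line through the log2 of each stage's mean FPKM + 1. Zscan4c, Zscan4d and Duxf3 peak at early 2-cell, the 6 genes in the middle panel have their lowest mean at late 2-cell, and the 6 on the right their highest.

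Of 32 genes linked to activation of the genome, 17 were higher and 6 lower in late embryos. These were 53.1% and 18.8%, against 32.7% and 26.1% of all genes. Gabpa, the DNA-binding subunit of an ETS family factor, measured 18.8, 17.1 and 10.2 FPKM early and 112 and 105 FPKM late (2.79 ± 0.23 (SE), adjusted p 5.76e-05). Crxos, a homeobox gene, rose most in the list, from 2.17, 5.58 and 7.32 to 81.3 and 94.0 FPKM (3.99 ± 0.37 (SE)). Early replicate 3 was lowest for Gabpa and highest for Crxos, and neither gene's late libraries overlapped the early ones. Dppa4 and Dppa2 encode a pair of SAP domain proteins that act upstream of Dux. Dppa4 went from 6.29, 9.25 and 10.4 to 78.6 and 67.3 FPKM (2.96 ± 0.20 (SE)), and Dppa2 from 22.0, 24.2 and 20.2 to 65.3 and 42.6 FPKM (1.22 ± 0.19 (SE), adjusted p 0.000972). Nr5a2, an orphan nuclear receptor, went from 15.9, 15.2 and 15.9 to 34.9 and 38.1 FPKM (1.17 ± 0.12 (SE)).

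Further factors of the list, named after their values were seen, rose too. Klf5 and Klf4, Krüppel-like factors, were higher by 2.72 and 1.74. Rarg, a retinoic acid receptor, was higher by 2.85 and Yy1, a zinc finger regulator of promoters, by 1.88. Klf17, which was already at 206, 189 and 194 FPKM early, was lower at 148 and 143 FPKM (-0.43 ± 0.10 (SE), adjusted p 0.00598), and not called without late replicate 2 (-0.40). Max, the partner of MYC, fell most in the list, from 88.9, 91.3 and 109 to 30.7 and 34.0 FPKM (-1.54 ± 0.13 (SE)). Nfya, a subunit of the CCAAT box factor, was barely past the threshold (0.39 ± 0.14 (SE), adjusted p 0.0407) and lost its call without early replicate 1 (0.40), early replicate 3 (0.30), late replicate 1 (0.37) or late replicate 2 (0.41). Tfap2c (0.20 ± 0.22 (SE)), Yap1 (0.23 ± 0.11 (SE)) and Nrf1 (-0.16 ± 0.11 (SE)) were not called.

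Of 15 regulators of the first lineages tested, 5 were higher and 1 lower (33.3% and 6.67%, against 32.7% and 26.1% of all genes). Fewer were higher when either late library was left out, where genes under 1 FPKM in every early library could not be tested. Tead4, a factor of the trophectoderm, measured 0.539, 0 and 0.0575 FPKM early and 6.24 and 7.65 FPKM late (2.75 ± 0.27 (SE), adjusted p 0.000109). Pou5f1, a pluripotency factor also stored in the egg, was the member that fell, from 132, 151 and 151 to 58.9 and 71.1 FPKM (-1.15 ± 0.12 (SE)). Cdx2 measured at most 0.152 FPKM and Nanog at most 0.0482 FPKM in these libraries, below the filter. Sox2 (0.21 ± 0.27 (SE)) and Gata3 (-0.64 ± 0.34 (SE)) were not called.

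More genes of the transcription machinery rose than fell. Of 49 genes for RNA polymerase II, its general factors and elongation kinase, 24 were higher and 10 lower. These were 49.0% and 20.4%, against 32.7% and 26.1% of all genes, and the median of the list was 0.52. Cdk9, the kinase that releases paused polymerase, measured 7.81, 5.78 and 4.72 FPKM early and 42.6 and 40.5 FPKM late (2.61 ± 0.20 (SE), adjusted p 3.86e-05). Polr2m, a protein bound to the polymerase, rose most in the list, from 1.60, 1.78 and 0.923 to 17.6 and 11.9 FPKM (2.69 ± 0.26 (SE)), and Polr2a, the largest subunit, went from 10.8, 9.73 and 12.9 to 24.8 and 26.8 FPKM (1.15 ± 0.16 (SE)). Cdk9 ended at a higher FPKM than either polymerase gene. Gtf2b, which places the polymerase at the start site, fell from 61.1, 65.4 and 59.6 to 14.3 and 17.9 FPKM (-1.89 ± 0.13 (SE)). Tbp, the TATA-binding protein, was not called (-0.15 ± 0.13 (SE)), and neither was Polr2f (0.66 ± 0.25 (SE), adjusted p 0.0545).

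Genes for ribosome production rose. Of 112 ribosome biogenesis genes, 96 were higher and 5 lower (85.7% and 4.46%, against 32.7% and 26.1% of all genes), and their median was 1.66. Noc2l, a nucleolar assembly factor, rose most, from 3.75, 2.48 and 1.93 FPKM to 54.8 and 46.9 FPKM (3.83 ± 0.23 (SE), adjusted p 1.68e-05). It had averaged 21.3 FPKM in control MII eggs and 15.8 FPKM in late 1-cell embryos, above its early 2-cell level. Fbl, the methyltransferase of ribosomal RNA, went from 9.66, 8.15 and 8.35 to 41.3 and 34.3 FPKM (1.99 ± 0.15 (SE)). Nop58, its partner in the same particles, went from 7.07, 9.90 and 5.96 to 35.5 and 33.4 FPKM (2.06 ± 0.20 (SE)). The rises of Fbl and Nop58 were alike in size and lay within their standard errors of each other. Polr1b, a subunit of RNA polymerase I, was higher by 1.80 ± 0.25 (SE), and Ubtf, its activator named after its values were seen, by 3.61 ± 0.23 (SE).

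The 5 members that fell were Tex10 (-1.27 ± 0.20 (SE)), the nucleolar chaperones Npm1 (-0.99 ± 0.10 (SE)) and Npm3 (-0.48 ± 0.15 (SE)), Rsl1d1 (-0.63 ± 0.10 (SE)) and Mphosph10 (-0.51 ± 0.15 (SE)). Npm1 was far more abundant than the others, at 422, 474 and 444 FPKM early and 234 and 214 FPKM late. Npm3 lost its call without early replicate 2 (-0.39), late replicate 1 (-0.54) or late replicate 2 (-0.42). Mphosph10 lost its call without early replicate 1 (-0.45), early replicate 2 (-0.42), late replicate 1 (-0.57) or late replicate 2 (-0.44). Without early replicate 2 or either late library 3 members were lower. Ncl, nucleolin, was not called (0.38 ± 0.20 (SE)).

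Of 87 cytoplasmic ribosomal protein genes, 79 were higher and 1 lower, with a median of 1.90. These were 90.8% and 1.15%, against 32.7% and 26.1% of all genes. Their median level in controls was 52.9 FPKM in fully grown oocytes, 25.1 in MII eggs and 13.1 in late 1-cell embryos. It was 11.3 FPKM at early and 41.0 FPKM at late 2-cell, still below the oocyte level. Rplp0, of the ribosomal stalk, measured 76.6, 77.4 and 77.7 FPKM early and 224 and 229.6 FPKM late (1.54 ± 0.09 (SE), adjusted p 1.68e-05). Rps6 measured 15.4, 21.2 and 16.8 and 70.2 and 61.4 FPKM (1.84 ± 0.16 (SE)), Rps3 was higher by 1.99 ± 0.17 (SE) and Rpl3 by 1.55 ± 0.18 (SE). Rps15a, chosen by the rule as the member that fell, was the 1 lower member (-0.54 ± 0.16 (SE), adjusted p 0.0225), and was not called without early replicate 2 (-0.46), late replicate 1 (-0.50) or late replicate 2 (-0.59). Many of these genes have processed pseudogenes, so their levels are uncertain where reads were divided between copies. Scaling to the median of each library left 76 of the 87 ribosomal protein genes and 90 of the 112 biogenesis genes higher.

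Of 67 translation factors 34 were higher and 17 lower (50.7% and 25.4%, against 32.7% and 26.1% of all genes), led by Pabpc1, the poly(A)-binding protein, which went from 12.1, 7.30 and 9.36 to 131 and 112 FPKM (3.55 ± 0.20 (SE)). Eif2s1 (0.84) and Eif1a (1.02) rose, Eef1a1 (-0.68) fell and Eif4e (-0.22) was not called. The list thus held strong changes in both directions. Of 70 spliceosome genes 34 were higher and 16 lower (48.6% and 22.9%). Snrnp35, of the minor spliceosome, rose from 1.96, 1.96 and 0.720 to 23.6 and 18.2 FPKM (3.14 ± 0.29 (SE)), and Snrnp27 fell from 215, 240.2 and 198 to 33.4 and 44.0 FPKM (-2.47 ± 0.14 (SE)). U2af1 rose (1.16), Snrpd1 (-0.93) and Srsf3 (-1.15) fell and Prpf19 was not called (-0.31). Sf3b1 fell by 0.36 with an adjusted p of 0.0401, and was not called when any of early replicate 1 (-0.34), early replicate 2 (-0.29), late replicate 1 (-0.40) or late replicate 2 (-0.32) was left out.

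Of 57 nuclear pore and transport genes 27 were higher and 17 lower (47.4% and 29.8%, against 32.7% and 26.1% of all genes). Ipo7, an importer of ribosomal proteins, rose from 3.99, 4.15 and 3.55 to 66.4 and 53.9 FPKM (3.64 ± 0.16 (SE), adjusted p 7.53e-06), and Nup37 fell from 34.0, 27.8 and 31.3 to 2.92 and 3.75 FPKM (-2.89 ± 0.16 (SE)). Both changes were far larger than their standard errors. The exporter Xpo1 was higher (1.19), while Nup62 (-0.13), Nup98 (-0.10) and Kpna2 (0.31) were not called. Of 37 chaperones 20 were higher and 9 lower (54.1% and 24.3%). Fkbp4, a partner of HSP90, rose from 1.89, 2.56 and 1.26 to 30.1 and 32.1 FPKM (3.49 ± 0.23 (SE)), and Pfdn4, a prefoldin subunit, fell from 209.6, 213 and 177 to 36.1 and 32.7 FPKM (-2.50 ± 0.12 (SE)). Hspa8 (1.41) and Cct2 (0.81) rose and Hspd1 fell (-0.59). Hspa1b, a heat shock gene, was higher (0.59, adjusted p 0.0239) and lost its call without early replicate 1 (0.58), late replicate 1 (0.65) or late replicate 2 (0.52).

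Of 44 proteasome genes 20 were higher and 14 lower (45.5% and 31.8%, against 32.7% and 26.1% of all genes). The higher calls were 12 without late replicate 1 and 11 without late replicate 2, and 13 against 16 lower ones after median centring. Psmb5, a catalytic subunit, measured 0.215, 0 and 0.525 FPKM early and 8.60 and 9.93 FPKM late (3.06 ± 0.26 (SE)), and Psmd14, the lid deubiquitinase, was higher by 2.48 ± 0.33 (SE). Psme2, of the activator cap, was listed at or near 0 in the early libraries (0, 0 and 0.129 FPKM) and at 5.19 and 11.4 FPKM in the late ones. Psmb6, another catalytic subunit, fell from 41.0, 42.8 and 46.2 to 11.6 and 9.73 FPKM (-1.93 ± 0.13 (SE)). Psmc1 was not called (0.19), and Psma1 was higher (0.75, adjusted p 0.0151) but not without late replicate 1 (0.83) or late replicate 2 (0.68). Of 20 aminoacyl-tRNA synthetases 6 rose and 6 fell (30% each), near the shares of all genes. Hars (2.79), Aars (1.43) and Iars (0.82) were among those that rose, and Farsb (-2.04) and Gars (-1.17) among those that fell.

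**Figure D4:**
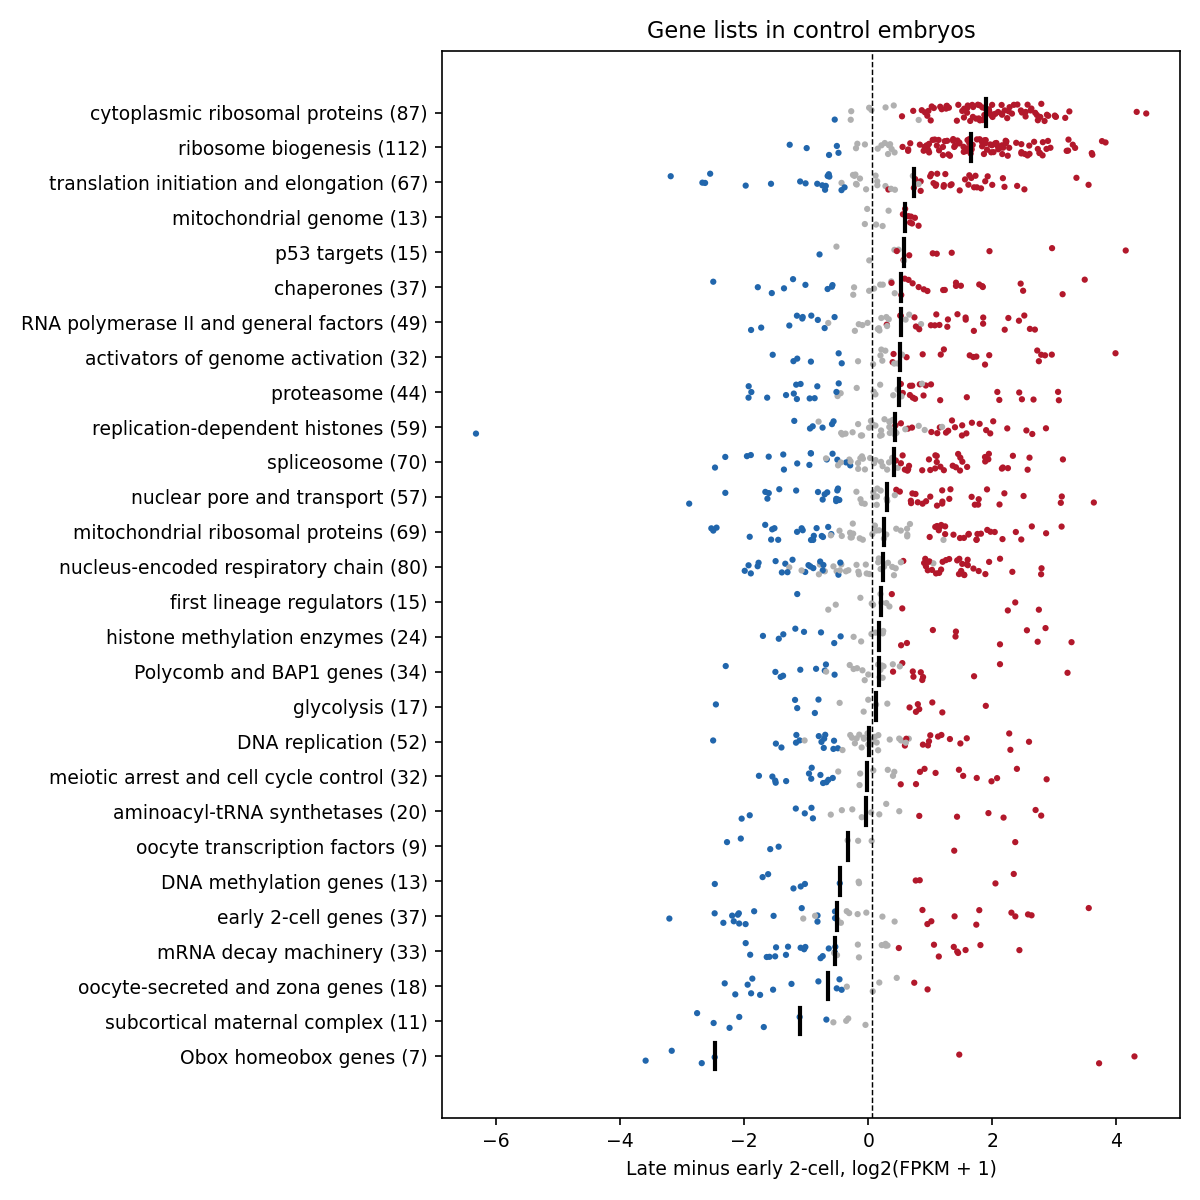
Late minus early 2-cell difference (log2(FPKM + 1)) of each tested gene in each fixed gene list with at least 7 tested members, whose number stands in brackets. Red points were called higher, blue lower and grey points were not called, the black bars are list medians (1.90 for cytoplasmic ribosomal proteins, -2.48 for Obox genes) and the dashed line is the median of all genes, 0.05.

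Transcripts known from the oocyte fell in most, not all, members. Of 18 oocyte-secreted and zona genes 12 were lower and 2 higher (66.7% and 11.1%, against 26.1% and 32.7% of all genes). Bmp15, a growth factor the oocyte secretes, measured 385, 378 and 459 FPKM early and 120.0 and 121 FPKM late (-1.74 ± 0.12 (SE), adjusted p 2.19e-05). Oosp3, an oocyte-secreted protein, fell most in the list, from 226, 215 and 281 to 45.7 and 48.7 FPKM (-2.31 ± 0.13 (SE)). Gdf9, the partner of Bmp15, had already dropped from a mean of 945 FPKM in control MII eggs and went on from 79.6, 88.1 and 101 to 61.9 and 70.1 FPKM (-0.43 ± 0.13 (SE), adjusted p 0.0223), with no call without late replicate 1 (-0.34) or late replicate 2 (-0.52). Oosp1 fell by 0.80 (adjusted p 0.0165), and was not called without late replicate 2 (-0.71). The 2 that rose were Zp3, an egg coat protein (0.74 ± 0.17 (SE)), and Cd9, the egg's sperm fusion protein (0.96 ± 0.16 (SE)). Zp3 had been at a mean of 431 FPKM in fully grown oocytes and was at 9.08, 7.44 and 9.90 FPKM in the early libraries.

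Of 11 subcortical maternal complex genes 7 were lower and 0 higher in limma (63.6% and 0%, against 26.1% and 32.7% of all genes). Their median was -1.11. At an unadjusted p under 0.05 from limma 8 were lower and 0 higher, against 63.8% of all genes in either direction, and quantile normalization called 1 higher. Nlrp9b, a member of the NLR family expressed in oocytes, fell from 64.9, 65.5 and 69.5 to 9.57 and 8.42 FPKM (-2.76 ± 0.12 (SE)). Ooep, an RNA-binding member, fell from 42.8, 44.7 and 44.4 to 8.18 and 8.91 FPKM (-2.24 ± 0.12 (SE), adjusted p 1.31e-05), and Nlrp5 by 1.68 from the levels given above. All 3 were still detected in both late libraries. Padi6 was lower by -0.68 ± 0.12 (SE), and Tle6 was not called (-0.36 ± 0.14 (SE), adjusted p 0.0605). Tle6 had lost most of its level before, from a mean of 299.9 FPKM in MII eggs to 23.9 FPKM at early 2-cell. Of 9 oocyte transcription factors 4 fell and 2 rose (44.4% and 22.2%). Nobox fell from 42.5, 46.3 and 40.6 to 9.04 and 7.23 FPKM (-2.28 ± 0.14 (SE)) and Lhx8 by 1.58. The 2 that rose were Gata4, from 7.73, 7.33 and 8.97 to 45.3 and 45.6 FPKM (2.37 ± 0.14 (SE)), and Taf4b (1.39 ± 0.14 (SE)), while Figla was not called (0.05 ± 0.31 (SE)).

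More genes of the decay machinery fell than rose. Of 33 genes 16 were lower and 9 higher (48.5% and 27.3%, against 26.1% and 32.7% of all genes), with a median of -0.53. Btg4, the adaptor that brings the CCR4-NOT deadenylase to maternal messages, measured 1737, 1881 and 1634 FPKM early and 724 and 669 FPKM late (-1.33 ± 0.11 (SE), adjusted p 6.35e-05). Cnot6l, a catalytic subunit of that deadenylase, fell from 94.2, 97.8 and 94.7 to 47.7 and 44.7 FPKM (-1.03 ± 0.10 (SE)), and Eif4e1b, an oocyte cap-binding protein, fell most (-1.98 ± 0.12 (SE)). Btg4 was still among the abundant transcripts of late embryos. Tut7, which adds uridine tails, rose from 7.89, 6.27 and 6.21 to 17.5 and 14.7 FPKM (1.14 ± 0.18 (SE)), as did Dis3, a catalytic subunit of the exosome, from 4.08, 2.73 and 2.83 to 20.8 and 22.4 FPKM (2.44 ± 0.20 (SE)). Zfp36l2 was not called (0.28 ± 0.21 (SE)). Dcp1a, of the decapping complex, fell by 0.54 (adjusted p 0.0352) and was not called without early replicate 1 (-0.39), early replicate 2 (-0.55), late replicate 1 (-0.40) or late replicate 2 (-0.67).

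Of 32 genes of meiotic arrest and cell cycle control 12 were higher and 13 lower (37.5% and 40.6%, against 32.7% and 26.1% of all genes). Ccnb1, a mitotic cyclin, fell from 204, 208 and 216 to 85.6 and 80.4 FPKM (-1.32 ± 0.10 (SE)), and Ccnb2 by 1.76. Fbxo43, the inhibitor that holds the egg in metaphase, fell from 52.2, 53.1 and 54.1 to 16.9 and 19.4 FPKM (-1.50 ± 0.12 (SE)), and Wee2, an oocyte kinase, by 0.57. Ccne1, the cyclin of entry into S phase, rose from 25.2, 16.4 and 19.5 to 160.1 and 147 FPKM (2.88 ± 0.17 (SE), adjusted p 1.72e-05). B-type cyclins and cyclin E thus moved in opposite directions. Plk1 (0.42 ± 0.16 (SE)) and Mos (-0.48 ± 0.25 (SE)) were not called. Of 52 DNA replication genes 14 rose and 14 fell (26.9% each), close to the shares of all genes. Orc1, of the origin recognition complex, was higher (1.18) and Gins3, of the replicative helicase, rose most (2.59). Mcm2 (-1.11), Pcna (-0.56) and Rpa3 (-2.50) were lower and Cdc6 was not called (0.65). The higher replication genes numbered 9 without late replicate 1 and 7 without late replicate 2.

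Of 24 histone methylation enzymes 10 were higher and 8 lower (41.7% and 33.3%, against 32.7% and 26.1% of all genes). Kdm5b, which removes methyl groups from lysine 4 of histone H3, measured 8.57, 7.09 and 5.59 FPKM early and 60.9 and 53.3 FPKM late (2.86 ± 0.18 (SE), adjusted p 2e-05). Suv39h1, which methylates lysine 9, rose from 1.41, 1.44 and 0.423 to 20.1 and 17.4 FPKM (3.28 ± 0.28 (SE)). Suv39h1 was under 2 FPKM in every early library. Kdm1b, a demethylase that acts in oocytes, fell from 55.3, 63.0 and 62.9 to 17.1 and 18.8 FPKM (-1.70 ± 0.12 (SE)), and Setdb1, another lysine 9 methylase, fell by 1.18. Kmt2d was not called (0.23). Kdm6b was lower (-0.45, adjusted p 0.0397), but not called without early replicate 2 (-0.49), early replicate 3 (-0.33) or late replicate 2 (-0.30).

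Of 34 Polycomb and BAP1 genes 10 were higher and 9 lower (29.4% and 26.5%), shares close to those of all genes. The split became 6 higher and 14 lower after median centring, which also turned the list's median from 0.17 to -0.07, and 6 were higher without late replicate 1. Bap1 itself was level, at 23.5, 29.2 and 24.8 FPKM early and 24.4 and 20.9 FPKM late (-0.18 ± 0.14 (SE), adjusted p 0.31). Of the core subunits of Polycomb complex PRC2, Ezh2 fell from 205, 237 and 171 to 81.4 and 69.8 FPKM (-1.41 ± 0.15 (SE)) and Eed from 114, 87.9 and 65.8 to 31.9 and 28.5 FPKM (-1.50 ± 0.21 (SE)). The third core subunit, Suz12, named after its values were seen, was not called, at 248, 271 and 244 FPKM early and 235 and 241 FPKM late (-0.09 ± 0.10 (SE)). Rbbp7, a histone chaperone shared with other complexes, fell most (-2.30 ± 0.13 (SE)). Pcgf5, of a variant PRC1, rose from 5.77, 7.13 and 1.82 to 44.2 and 54.0 FPKM (3.21 ± 0.41 (SE)), with early replicate 3 lowest. Asxl1, the partner of BAP1, was lower (-0.70 ± 0.11 (SE)), Rnf2 was not called (-0.06 ± 0.12 (SE)) and Ring1 was listed at 0 in all 5 libraries.

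Of 13 DNA methylation genes 7 were lower and 4 higher (53.8% and 30.8%, against 26.1% and 32.7% of all genes). Zfp57, a protector of imprints, fell from 845, 963 and 977 to 171 and 161 FPKM (-2.47 ± 0.11 (SE), adjusted p 7.53e-06). Dppa3, which guards the maternal genome against demethylation, went from 1193, 1364 and 1283 to 586 and 522 FPKM (-1.21 ± 0.11 (SE)). Tet3, the oxidase stored in the egg, fell by 1.02, while its relative Tet1 rose from 1.92, 0.608 and 1.51 to 10.98 and 10.2 FPKM (2.35 ± 0.29 (SE)). Dnmt3a was lower (-1.61 ± 0.25 (SE)), and so was Dnmt3l (-1.09 ± 0.18 (SE)). Dnmt1, the maintenance enzyme, was lower by -0.46 (adjusted p 0.0188) but not called without late replicate 1 (-0.34). Of 59 replication-dependent histone genes 23 were higher and 7 lower (39.0% and 11.9%), with 15 higher and 4 lower without late replicate 1 and 15 and 3 without late replicate 2. H2ac21 rose most, from 6.73, 8.08 and 3.83 to 45.2 and 54.8 FPKM (2.87 ± 0.26 (SE)). H1f0, a linker histone outside those clusters, fell (-1.14).

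Of 17 glycolysis genes 7 were higher and 5 lower (41.2% and 29.4%, against 32.7% and 26.1% of all genes), and 4 were higher without late replicate 1 or 2. Ldhb, the lactate dehydrogenase of the oocyte, measured 391, 433 and 443 FPKM early and 73.4 and 78.6 FPKM late (-2.46 ± 0.10 (SE), adjusted p 7.53e-06). Pkm (0.77), Gapdh (0.67) and Pgam1 (1.19) were higher, and Pgk1 (0.80) was too, but not without late replicate 1 (0.75). Of 80 nuclear genes of the respiratory chain 33 were higher and 19 lower (41.3% and 23.8%), the higher ones numbering 16 without late replicate 2. Atp5g1, of ATP synthase, rose most (2.79), with Cox4i1 (2.32) and Uqcrc1 (2.12). Ndufa10 (-1.99) and Ndufa4 (-1.22) fell and Atp5b was not called (0.16). Of 69 mitochondrial ribosomal proteins 26 were higher, with Mrpl41 (3.12) and Mrpl12 (2.64), and 20 lower (37.7% and 29.0%), with Mrpl53 (-2.53), while Mrps18b was not called (0.25). Without late replicate 1 or 2 the lower ones numbered 12. The shares of these 3 lists lay near those of all genes.

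Of the 13 genes of the mitochondrial genome 8 were higher and 0 lower in limma (61.5% and 0%, against 32.7% and 26.1% of all genes). At an unadjusted p under 0.05 from limma 9 were higher and 0 lower, against 63.8% of all genes in either direction. Fewer were called higher without late replicate 2. mt-Nd4 measured 1735, 1497 and 1568 FPKM early and 2565 and 3062 FPKM late (0.81 ± 0.13 (SE)). mt-Nd1 (0.69 ± 0.15 (SE)) and mt-Cytb (0.75 ± 0.16 (SE)) were higher too, as was mt-Co1 (0.56), which was not called without late replicate 2 (0.44). With TPM scaling or median centring 4 of the 13 were called higher, and 2 with no filter on low values.

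Y-linked genes can be transcribed only from the sperm genome, and so mark embryonic transcription. Eif2s3y, a translation factor gene, measured 0.236, 0.201 and 0 FPKM early and 2.86 and 3.19 FPKM late (1.82 ± 0.22 (SE), adjusted p 0.000299). Uty, a histone demethylase relative, measured 0.206, 0 and 0.515 and 2.61 and 2.11 FPKM (1.45 ± 0.25 (SE)). Usp9y was higher by 0.84, but not without early replicate 1 (0.72) or early replicate 2 (0.74). None of these genes passed the filter once a late library was left out. Ddx3y and Kdm5d stayed below the filter, at most 0.349 and 1.10 FPKM, and Xist, which silences the X chromosome, at most 0.542 FPKM.

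Of 15 p53 targets 9 were higher and 1, Plk2, was lower (60% and 6.67%, against 32.7% and 26.1% of all genes). Fewer were higher when either late library was left out. Sesn2, a stress-induced regulator of growth, measured 3.31, 2.56 and 1.72 FPKM early and 65.0 and 56.6 FPKM late (4.15 ± 0.22 (SE), adjusted p 1.26e-05). Cdkn1a, the inhibitor of cyclin-dependent kinases, went from 4.51, 3.41 and 3.41 to 7.75 and 9.90 FPKM (1.04 ± 0.21 (SE)). Mdm2, the ligase of p53, was higher by 0.57, but not called without late replicate 1 (0.54) or late replicate 2 (0.59). Plk2 was lower by -0.79 and not called without late replicate 2 (-0.66), and Ccng1 was not called (0.49).

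The libraries of control oocytes, eggs and late 1-cell embryos, which the comparison did not use, show where the called genes stood before. Of the 3039 genes at least 2-fold higher, 1158 (38.1%) had been under 1 FPKM on average at each of these 3 stages, against 2184 (17.2%) of all genes tested. Of those 1158 genes 333 (28.8%) had reached 1 FPKM by the early 2-cell stage. The other 1881 had been present in the egg or zygote. Of the 1842 genes at least 2-fold lower, 102 (5.54%) had been absent before. The filter keeps a gene absent before only if it reached 1 FPKM in 2 or more of the 5 libraries compared. These shares therefore describe the called genes and test nothing. Medians over the genes at least 2-fold higher were 1.98 FPKM in fully grown oocytes, 1.75 in MII eggs, 1.34 in late 1-cell, 1.72 in early 2-cell and 9.47 in late 2-cell embryos. Medians over the genes at least 2-fold lower held at 15.7, 16.0 and 16.1 FPKM through oocyte, egg and late 1-cell embryo, then measured 11.8 FPKM early and 3.46 FPKM late.

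Protein-coding genes were 86.3% of those at least 2-fold higher, 76.4% of those at least 2-fold lower and 81.9% of all tested. Long intergenic non-coding genes were 2.01%, 8.63% and 3.96% in the same order. The median span of protein-coding genes was 16536 bases for those at least 2-fold higher, 25148 for those lower and 25901 for all.

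Promoters were taken from RefSeq on GRCm38.p6, 250 bases before to 50 bases after a gene's annotated start, and 8385 of 10414 protein-coding genes tested (80.5%) had one. These 4 are shown to illustrate one short word, the ETS core CCGGAAG, and a promoter without it. The share of promoters with the word was higher over all genes at least 2-fold higher than over all genes tested. A part of ETS factors in the rises was not tested. The promoters of Exoc3l2, Alppl2 and Gpn3, which rose, lack the word, while those of Nup37 and Vta1, which fell, hold it. In the first 3 promoters below the capitals mark this word on either strand, and in the promoter of Zscan4d, which holds none, they mark the TATA word TATAAA. Gabpa lies on the plus strand (chr16:84834874-84835173), Cdk9 on the minus strand (chr2:32712735-32713034), Selenos on the plus strand (chr7:66079399-66079698) and Zscan4d on the minus strand (chr7:11166099-11166398).
Gabpa: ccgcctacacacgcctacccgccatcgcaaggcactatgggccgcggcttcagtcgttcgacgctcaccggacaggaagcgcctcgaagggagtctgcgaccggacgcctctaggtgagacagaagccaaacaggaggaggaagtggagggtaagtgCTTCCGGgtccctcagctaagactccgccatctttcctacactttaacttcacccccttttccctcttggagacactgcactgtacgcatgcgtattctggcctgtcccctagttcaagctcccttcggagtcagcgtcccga
Cdk9: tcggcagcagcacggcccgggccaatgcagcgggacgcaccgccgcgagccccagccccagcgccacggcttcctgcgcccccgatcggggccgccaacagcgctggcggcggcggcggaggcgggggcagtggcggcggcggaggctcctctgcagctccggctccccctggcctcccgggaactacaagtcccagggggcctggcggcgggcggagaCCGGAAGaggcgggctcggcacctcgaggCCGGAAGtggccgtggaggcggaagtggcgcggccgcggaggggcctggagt
Selenos: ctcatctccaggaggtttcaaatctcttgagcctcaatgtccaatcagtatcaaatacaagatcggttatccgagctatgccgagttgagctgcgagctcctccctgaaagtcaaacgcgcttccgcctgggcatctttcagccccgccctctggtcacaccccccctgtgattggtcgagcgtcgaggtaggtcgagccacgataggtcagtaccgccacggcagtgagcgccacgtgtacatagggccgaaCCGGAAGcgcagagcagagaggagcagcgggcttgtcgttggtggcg
Zscan4d: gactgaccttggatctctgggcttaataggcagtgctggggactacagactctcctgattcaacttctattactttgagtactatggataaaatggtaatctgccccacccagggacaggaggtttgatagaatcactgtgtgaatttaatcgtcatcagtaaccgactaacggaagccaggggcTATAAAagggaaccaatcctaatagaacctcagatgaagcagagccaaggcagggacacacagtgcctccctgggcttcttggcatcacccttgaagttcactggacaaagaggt

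The word stands 93 bases before the start in Gabpa, written there on the other strand, and 31 and 2 bases before it in Cdk9. In Selenos it begins 3 bases after the start base, and the TATA word of Zscan4d stands 65 bases before the start. Gabpa, Cdk9 and Selenos are the genes described above at 109, 41.6 and 101 FPKM on average in late embryos. The ratio of observed to expected CpG was 0.85, 0.85 and 0.90 in their promoters and 0.18 in that of Zscan4d, against a median of 0.79 over all tested genes with a promoter.

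Over both strands, CCGGAAG stood in 23.4% of promoters of genes at least 2-fold higher, 17.3% of those at least 2-fold lower, 19.5% of all tested and 8.86% of all 32851 promoters in the table. Among genes at least 2-fold higher that had been present before, the share was 28.3%. Of those absent before, Selenos one of them, only 77.0% were matched to a promoter, so their share is void and not given. The 28.3% can therefore not be set against it. Among ribosome biogenesis genes the share with CCGGAAG was 43.2%, 41 of 95. The GC box GGGCGG stood in 65.8%, 55.1% and 64.4% of promoters of genes higher, lower and tested, and in 35.7% of the table. The YY1 word AAGATGG, which can overlap the end of an ETS word, stood in 8.03%, 8.58%, 7.68% and 6.34%, and the NRF1 word GCATGCG in 7.42%, 6.22%, 7.27% and 3.58%. CCAAT stood in 42.3%, 38.5%, 40.9% and 37.4%, and TATAAA in 7.14%, 9.02%, 7.01% and 13.6%. The homeobox word GGATTA stood in 6.47%, 6.13%, 5.88% and 7.06%, and the nuclear receptor word AAGGTCA in 3.50%, 3.94%, 3.02% and 4.72%. A match is a match of letters in this window and not a bound site. For early 2-cell genes and ribosomal protein genes fewer than 80% had a promoter (67.6% and 75.0%), and their shares are void and not given.

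Maternal knockout libraries of the same stages (3 early and 3 late) measured the same interval in other libraries. The knockout label was checked on Bap1, at 7.05, 6.67 and 6.77 FPKM in early and 9.69, 11.7 and 10.0 FPKM in late knockout embryos, below all 5 control libraries. In knockout embryos 4112 of 14051 genes (29.3%) were higher and 2786 (19.8%) lower at late 2-cell, in a fit of the 11 2-cell libraries. In that fit 4318 of the 14051 genes were higher and 3356 lower in controls. Of the 3039 genes at least 2-fold higher in controls, 2905 differed in the same direction in the knockout and 2336 were called so, while 18 were called the opposite way. Their median difference was 1.67 in control and 1.13 in knockout embryos. Of the 1842 genes at least 2-fold lower in controls, 1663 differed in the same direction and 1238 were called so, with 52 called the opposite way, and the medians were -1.40 and -0.79.

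The difference between the changes, knockout minus control, was tested over the 11 libraries. At an adjusted p under 0.05 in limma it was called above 0 for 1238 genes (8.81%) and below 0 for 1108 genes (7.89%). Counts of differences above or below 0 given from here on are counts of called ones. Without late control replicate 1 these were 769 and 517 genes, and without late control replicate 2 they were 750 and 515. This test shares the control libraries with the choice of genes above, and choosing genes for a large control change favours a smaller change in the knockout, so counts for those genes are a description. Of the genes higher in controls the change was called smaller in the knockout for 800 and larger for 55. Of those lower it was called smaller for 650 and larger for 3. Of 113 ribosome biogenesis genes the difference was called below 0 for 55 and above 0 for 1. The median of the list was 0.65 in the knockout. Of 88 ribosomal protein genes the difference was called below 0 for 16, and their median was 1.31 in the knockout. Of 37 early 2-cell genes it was called above 0 for 17 and below for 1.

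Of the 29 genes examined singly, Tor1b had the widest gap among those that rose. It was listed at 0 in all 3 early knockout libraries and at 1.05, 2.01 and 3.29 FPKM in the late ones, a difference between the changes of -3.60 ± 0.36 (SE) (adjusted p 0.000224). Its late level was far below that of late controls. Gpn3 rose by 2.64 in the knockout, a difference of -1.73 ± 0.36 (SE) from its rise in controls (adjusted p 0.00705). Selenos rose by 4.10, and its difference of -0.27 ± 0.37 (SE) was not called (adjusted p 0.664). Zscan4c, which fell in controls, stood at 39.2, 13.6 and 31.9 FPKM early and 33.5, 20.0 and 27.9 FPKM late in the knockout, with overlapping groups and a difference of 3.25 ± 0.47 (SE) (adjusted p 0.00125). Zfp352 went from 28.0, 11.2 and 25.03 to 119, 99.2 and 96.5 FPKM in the knockout, a rise where controls were lower (3.15 ± 0.38 (SE), adjusted p 0.000501). Duxf3 fell in both, from 19.2, 22.2 and 27.5 to 1.83, 2.45 and 1.20 FPKM in the knockout. H2ac18 measured 1.16, 203 and 2.34 FPKM in early knockout libraries, 1 of which lay far above the others, and 174, 252 and 202 FPKM in late ones, and its reads are shared with other models as said above.

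**Figure D5:**
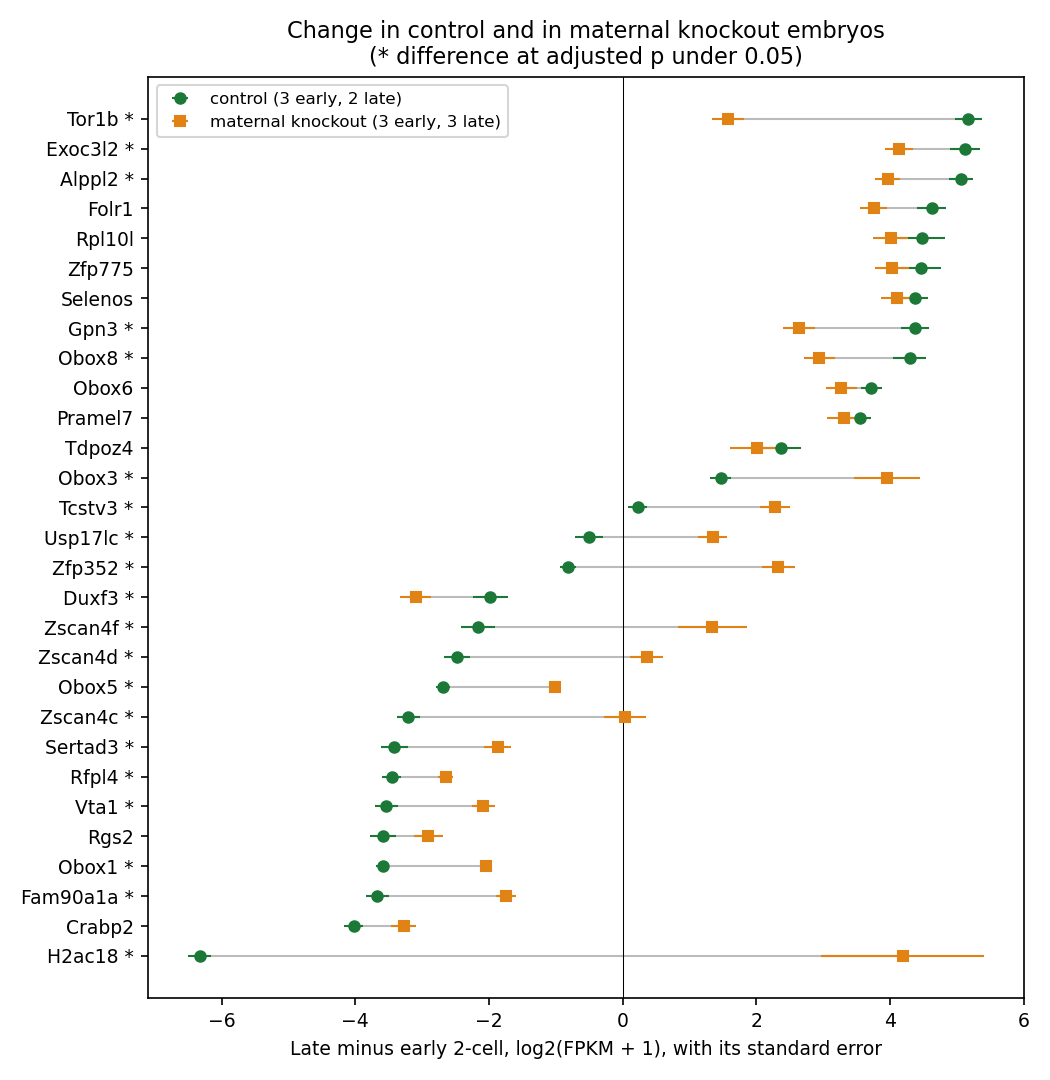
Late minus early 2-cell difference (log2(FPKM + 1), horizontal axis, bars are standard errors) of 29 genes in control (green circles, 3 early and 2 late libraries) and maternal knockout embryos (orange squares, 3 early and 3 late libraries). A star marks the 20 genes whose changes differed at an adjusted p under 0.05, and for Tor1b the values are 5.17 and 1.57.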

How the data were processed

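Fully grown oocytes, eggs and embryos were measured by total RNA-seq with the SMART-Seq Stranded kit, per the labels. The authors deposited FPKM per gene and library. The submitters' processing notes name Trim Galore 0.6.6, STAR 2.7.9, StringTie 2.1.7 and mm10, while the annotation, filters and strand setting are not given in the sources used here. Of 55401 gene identifiers, 54349 are in GENCODE M21 with the same version, and positions come from it. Values go down to 1e-06 FPKM, too low for 1 whole read, so the depth is unknown and counting error cannot be given. The number of libraries limits the precision.

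Genes that reached 1 FPKM in 2 or more of the 5 libraries were analysed as log2(FPKM + 1) with limma 3.58.1 in R 4.3.3 (eBayes with trend, Benjamini-Hochberg adjustment, threshold 0.05). Knockout values and the difference between changes come from one limma fit of the 11 libraries of 2-cell embryos. On simulated data with 12719 genes, 76% of 1-log2 and 100% of 2-log2 changes were recovered, with 4 false calls. For the difference (14051 genes) the shares were 27% and 99%, with 2 false calls. Only 100 genes were changed by each amount, none of them low, and all genes of a group had the same spread. In the real control comparison 58.9% of genes were called. The simulated shares therefore do not give the power or the error of the real tests. Python 3.11.15 and pandas 2.3.3 made the tables, and matplotlib 3.10.9 the figures.

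The genes named were the 8 with the largest rise and the 8 with the largest fall (adjusted p under 0.05, libraries apart, at least 5 FPKM in the higher group, no predicted or clone-named models), anchor genes of each list, and in each list the genes that rose and fell most. All others were chosen by role after their values were seen. The comparison, the 32 gene lists and the alternatives were chosen with earlier results of these data known. Alternatives were no filter, a mean of at least 5 FPKM, a pseudocount of 0.1, TPM scaling, scaling to the sum of protein-coding genes, quantile normalization, median centring, no trend, library weights, a replicate block, fits with more libraries, and leaving out each library. Libraries of embryonic day 6.5 were not used here.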

Additional observations from a re-analysis of the deposited data

Results flagged for a closer look

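For 20 of 29 genes the change from early to late 2-cell differed between maternal knockout and control embryos, by the test of the difference itself over 11 libraries (limma, adjusted p under 0.05). Over all 14051 genes 8.81% of differences were called above and 7.89% called below 0. Most of the 29 genes had been chosen for a large change in the same control libraries, so nothing is read from the count. Values are knockout minus control on the log2(FPKM + 1) scale. Among genes that rose in controls, the difference was -3.60 for Tor1b, -1.73 for Gpn3, -1.35 for Obox8, -1.09 for Alppl2 and -0.98 for Exoc3l2, below 0 in each. For Obox8 and Exoc3l2 the sign turned with a pseudocount of 0.1 (0.47 and 0.41, not called), so the direction of these 2 depends on that choice. For Obox3 it was 2.49, a steeper rise. Tcstv3 (2.05), not called in controls, rose in the knockout.

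Among genes that fell in controls, the difference was 1.54 for Obox1, 1.67 for Obox5, 1.92 for Fam90a1a, 1.55 for Sertad3, 1.45 for Vta1 and 0.81 for Rfpl4, a smaller fall in the knockout. It was 3.51 for Zscan4f, 3.25 for Zscan4c, 2.83 for Zscan4d and 3.15 for Zfp352, and 1.84 for Usp17lc, whose fall in controls was not called. Duxf3 differed by -1.12, a steeper fall in the knockout on this scale. Its control levels were below those of the knockout at both stages, and the scale makes changes of low genes look smaller. H2ac18 differed by 10.52, with every exonic word shared with other gene models. Leaving out 1 library ended some of these calls. Alppl2 was not called without late control replicate 1 (-1.06) or 2 (-1.12) or late knockout replicate 3 (-1.003), nor Obox8 without late control replicate 1 (-1.44) or 2 (-1.26). Duxf3 lost its call without any 1 of 8 libraries (-1.21 to -0.91), Exoc3l2 without any 1 of 9 (-1.10 to -0.83) and Obox3 without any 1 of 7 (2.39 to 2.60).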

How the results depend on the processing

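Precision is limited by 2 late and 3 early libraries and by an unknown depth. Leaving out each library gave 2364 to 4192 higher, 2378 to 3214 lower, 2011 to 3084 at least 2-fold higher and 1717 to 1888 at least 2-fold lower genes, and 750 to 1182 differences above 0 and 515 to 1075 below 0 between knockout and control. With 1 late library left, its spread is assumed to be that of the early ones. Genes under 1 FPKM in every early library then did not pass the filter of the control comparison. A mean of at least 5 FPKM left 2237 higher and 1513 at least 2-fold higher genes and 680 differences below 0, with 6613 genes tested. TPM scaling gave 2837 genes at least 2-fold lower and 678 differences below 0, and a pseudocount of 0.1 gave 722. A fit of all 26 total RNA libraries gave 2361 differences above and 2261 below 0. Counting as absent before any gene under 2 FPKM gave 160 of the genes at least 2-fold lower in place of 102. The cause of these shifts was not tested. The joint deviation (r) was -0.03 for early and late replicate 1 and 0.01 for early and late replicate 2. With only 2 late libraries, each r recurred with the opposite sign for the other late library. The check therefore cannot decide whether the numbers pair the libraries. The replicate block gave 4154 higher and 3193 lower genes and 910 differences above and 670 below 0. The difference for Exoc3l2 and for Obox8 turned to 0.41 and 0.47 with a pseudocount of 0.1, neither called there. Of 3596 values of named genes in the control comparison under alternatives, 98 lost and 54 gained a call and none turned. Of 1088 list counts 68 moved by over 1.5 times.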
